A study of Mus musculus with 28 samples.

Results

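Transcripts of B cell origin were followed here in mouse bone marrow-derived macrophages that had been offered dying T cells. The set holds 9 of the 55487 gene identifiers in the data: the immunoglobulin constant regions Ighm and Igkc, the B cell receptor subunits Cd79a and Cd79b, the B cell surface gene Ms4a1, and the immunoglobulin variable (V) segments Ighv7-1, Ighv1-39, Igkv15-103 and Igkv16-104. The genes were chosen by name with measured values in view: the V segments were picked from genes highest in macrophages that had engulfed regulatory T cells (Treg) under IL-10, against macrophages that had engulfed conventional CD4+ T cells (Tconv) or none. Values of the 9 genes within the IL-10 libraries are therefore given as a description, with no test, and tests of these 9 are confined to the IFNg and untreated libraries. Genes outside the set were also tested within the IL-10 libraries.

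The study compared macrophages of wild-type mice after efferocytosis, the uptake of apoptotic cells. The T cells had been driven into apoptosis with ATP and NAD+ and marked by a fluorescent antibody against CD4, and macrophages were sorted by whether they carried that label. There were 7 groups of 4 poly(A) RNA libraries, all from 48 h of culture. The M0 group received no polarizing cytokine. With IFNg at 50 ng/mL there were non-phagocytic, Tconv-phagocytic and Treg-phagocytic macrophages, and the same 3 sorted populations were made with IL-10 at 50 ng/mL. The label on the T cells was BV421 in 2 libraries and Ax647 in 2 libraries of each phagocytic group, and for all 8 Treg libraries the dye in the title differs from that in the library name. Titles are used here. The labels of the M0 libraries name no T cells, whereas the series' description mentions a co-culture without polarization, so whether M0 macrophages were offered T cells is in doubt. In a comparison with M0 the cytokine, the sort and any co-culture cannot be told apart. The labels do not say whether libraries of a group came from separate animals or cultures, so p-values measure only the spread between these libraries.

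B cells assemble each immunoglobulin chain from a variable segment joined to a constant region, so that a B cell clone transcribes its own heavy-chain V segment with a constant region such as Ighm, and a light-chain V segment with, for example, Igkc. Cd79a and Cd79b form the signalling pair of the B cell receptor, and Ms4a1 encodes the surface protein CD20. Rearranged immunoglobulin genes are the hallmark of the B lineage. In bulk RNA, fewer cells of a type and less RNA per cell cannot be told apart.

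The 4 V segments are single genes within large families, and their sequences bear on whether short reads can be assigned to them. Their 3′ coding ends were taken from the GENCODE vM21 transcripts (GRCm38, the build called mm10), 5′ to 3′ on the coding strand. This is the end that is joined to another segment in a rearranged gene. Capitals mark the last in-frame pair of a tyrosine codon followed directly by a cysteine codon, TACTGT, at the close of the third framework region.
Ighv7-1: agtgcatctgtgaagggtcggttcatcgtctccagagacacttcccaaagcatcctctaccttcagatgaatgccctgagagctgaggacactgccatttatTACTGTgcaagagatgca
Ighv1-39: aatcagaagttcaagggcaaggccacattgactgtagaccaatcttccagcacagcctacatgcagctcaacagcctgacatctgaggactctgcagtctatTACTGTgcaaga
Igkv15-103: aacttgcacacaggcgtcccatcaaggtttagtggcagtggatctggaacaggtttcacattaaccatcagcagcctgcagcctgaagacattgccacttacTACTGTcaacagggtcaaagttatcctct
Igkv16-104: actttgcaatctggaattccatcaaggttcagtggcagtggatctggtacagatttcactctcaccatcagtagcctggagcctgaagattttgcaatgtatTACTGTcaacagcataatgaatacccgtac

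The heavy-chain segments lie on the minus strand of chromosome 12, Ighv7-1 (ENSMUSG00000076665) at chr12:113896408-113896946 and Ighv1-39 (ENSMUSG00000095130) at chr12:114914599-114915032, 1017652 bases apart. The kappa segments are on the plus strand of chromosome 6 with 11367 bases between them, Igkv16-104 (ENSMUSG00000076522) at chr6:68425575-68426072 and Igkv15-103 (ENSMUSG00000076523) at chr6:68437440-68437925. Each is annotated with 2 exons. Ighm is at chr12:113418558-113422730, Igkc at chr6:70726435-70726966, Cd79a at chr7:24897381-24902197, Cd79b at chr11:106311341-106314762 and Ms4a1 at chr19:11249675-11266241. The heavy-chain pair shared 62.2% of aligned bases and the kappa pair 70.0%. The nearest other segment was Ighv7-3 at 89.0% identity for Ighv7-1, Ighv1-26 at 92.9% for Ighv1-39, Igkv15-97 at 74.4% for Igkv15-103 and Igkv9-123 at 72.4% for Igkv16-104. Of all 50-base stretches of the transcripts, 100% were found in no other gene's transcript for Ighv7-1, Igkv15-103 and Igkv16-104, and 92.7% for Ighv1-39, whose other stretches occur in further Ighv1 segments. Reads from Ighv1-39 could thus be divided among its relatives by the authors' counting, and its values are less certain than those of the other three.

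All 28 libraries carried high levels of the 9 macrophage genes listed for this check (Lyz2, Cd68, Adgre1 and Csf1r being the highest), with sums between 16621 and 21415 TPM (the relative abundance of a transcript, corrected for its length and the library's total). The files hold no counts. Depth was estimated from the steps between low values of transcripts of 340 to 390 bases, of which 58.0 to 90.3% per library lay within 0.15 of a whole read, against 30% for evenly spread values. By that estimate 1 read on a transcript of such length was worth 0.426 to 0.630 TPM in M0, 0.486 to 0.910 TPM in the IL-10 libraries and 1.71 to 3.92 TPM in the IFNg libraries, so the IFNg libraries were the shallowest and could show a short V segment least well. Genes above 0 numbered 14148 to 16295 in the IFNg libraries and 16942 to 18457 in the IL-10 libraries.

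The 4 V segments were seen together in every library of IL-10 Treg-phagocytic macrophages and in few others. Ighv7-1 was at 6.48, 4.70, 2.94 and 7.69 TPM in those libraries (Ax647 replicates 1 and 2, then BV421 replicates 1 and 2, the order used for every Treg group). Ighv1-39 was at 2.01, 1.46, 3.20 and 3.03 TPM. Both heavy-chain segments were listed at 0 in each of the other 24 libraries.

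Among kappa segments, Igkv15-103 was at 3.42, 8.08, 10.19 and 9.71 TPM in the IL-10 Treg-phagocytic libraries. It was at 0.91 TPM in the Ax647 replicate 2 of the IL-10 Tconv-phagocytic group, and at 0 in the remaining 23 libraries. Igkv16-104 was at 5.04, 6.10, 6.67 and 5.08 TPM. It was also seen at 3.59 and 1.63 TPM in the IFNg Tconv-phagocytic replicates BV421-2 and Ax647-2 and at 0.52 TPM in the IL-10 non-phagocytic replicate 2, so that its lowest IL-10 Treg-phagocytic library still lay above every other library. Group means in the IL-10 Treg-phagocytic libraries were 5.45 ± 2.08 for Ighv7-1, 2.42 ± 0.83 for Ighv1-39, 7.85 ± 3.09 for Igkv15-103 and 5.72 ± 0.80 TPM for Igkv16-104 (SD, n = 4). Libraries of both dyes held all 4 segments.

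**Figure D1:**
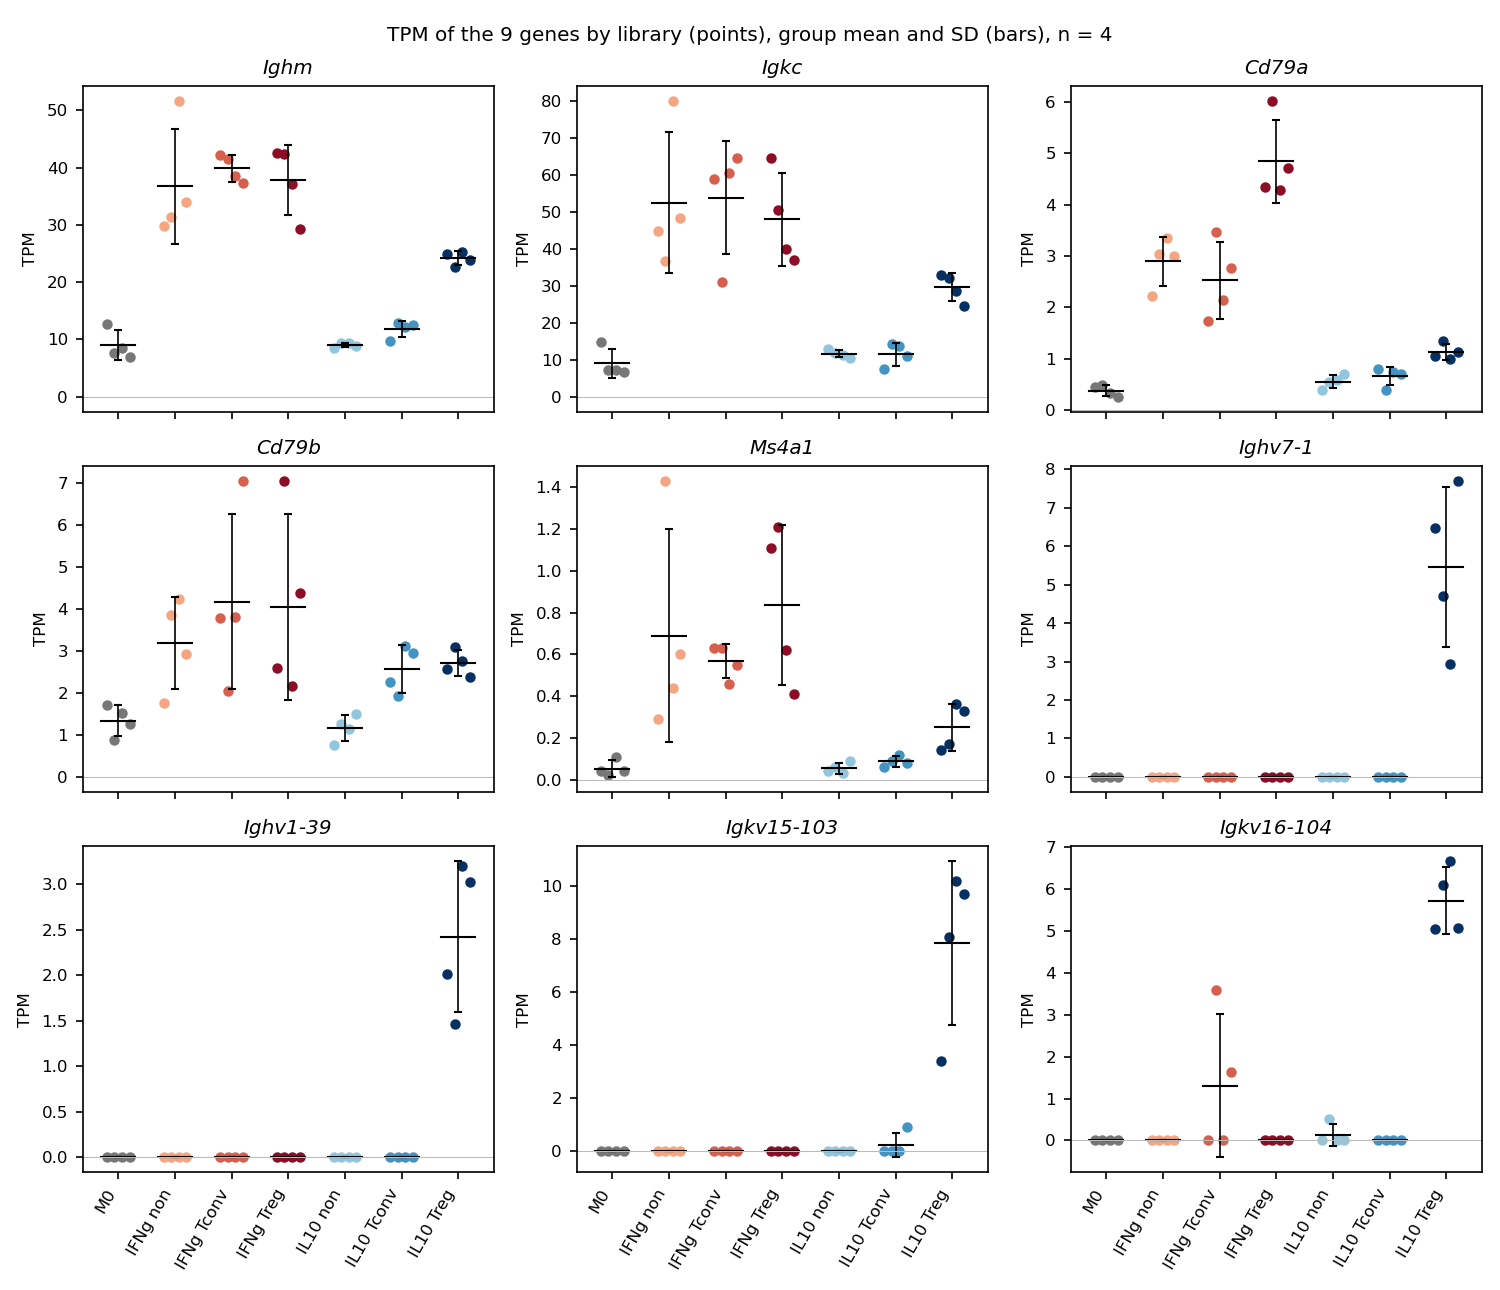
TPM (vertical axes, linear, a scale of its own for each gene) of the 9 genes in the 28 libraries (points) by group (horizontal axis; non stands for non-phagocytic), with the group mean and SD as bars (n = 4). The 4 V segments stand above 0 almost only in IL-10 Treg-phagocytic libraries, where Ighv7-1 spans 2.94 to 7.69 TPM, whereas Ighm and Igkc are highest in the 3 IFNg groups.

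What a value of 0 can show depends on depth. At the mean level of the IL-10 Treg-phagocytic group, the 4 IL-10 Tconv-phagocytic libraries together would have held about 40.9 reads of Ighv7-1, 17.6 of Ighv1-39, 60.8 of Igkv15-103 and 44.7 of Igkv16-104. The corresponding sums in the 4 IFNg Treg-phagocytic libraries were about 8.2, 3.5, 12.3 and 9.0 reads, and no read was seen there for any of the 4. A count of 0 that allows up to 3 reads over the 4 libraries corresponds to a mean of up to 1.98 TPM for Ighv7-1, 2.05 TPM for Ighv1-39, 1.92 TPM for Igkv15-103 and 1.91 TPM for Igkv16-104 in the IFNg Treg-phagocytic group. For Ighv1-39 this limit lies only a little below its IL-10 Treg-phagocytic mean of 2.42 TPM, so a level slightly under that mean was not detectable in the IFNg group. These limits cover counting error only and rest on the estimated depth.

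Few V segments recurred in this way. Of 348 annotated V segments (185 Ighv, 160 Igkv and 3 Iglv), 69 were above 0 in any library and 26 of those in a single library. Exactly 4 were above 0 in all 4 IL-10 Treg-phagocytic libraries and in at most 3 of the other 24, and all 4 are members of the set. Since the members were picked as genes highest in that group, this restates the choice, and nothing is read from the count or from its contrast with the following ones. The same count was 1 for M0, where Igkv9-120 was at 1.19 to 2.36 TPM in all 4 libraries, and 0 for each of the 5 other groups. By the same count, none of 163 T cell receptor alpha and beta V segments was restricted to any of the 7 groups, although 122 of them were above 0 in at least 1 library.

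The 4 segments made up much of the V segment RNA in their group. Ighv7-1 and Ighv1-39 held 59.5 to 71.9% of all Ighv TPM in the IL-10 Treg-phagocytic libraries, and Igkv15-103 and Igkv16-104 held 35.3, 58.5, 61.8 and 62.5% of all Igkv TPM. Across the other Ighv segments the summed level was 4.10 ± 1.19 TPM in that group, beside 4.06 ± 0.73 in IL-10 Tconv-phagocytic and 2.98 ± 1.60 TPM in IL-10 non-phagocytic libraries (SD, n = 4), and the 3 ranges overlapped. For the other Igkv segments the sums were 11.2 ± 2.94, 6.07 ± 1.29 and 7.81 ± 1.42 TPM in the same order. The IL-10 Treg-phagocytic sums began at 8.88 TPM, above the Tconv-phagocytic maximum of 7.98 TPM but within the non-phagocytic range, which reached 9.34 TPM.

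The highest V segments of the IFNg groups lay outside the set. Ighv1-18 led the heavy-chain segments in IFNg non-phagocytic (7.44 ± 3.95 TPM) and IFNg Tconv-phagocytic libraries (6.19 ± 1.69), and Igkv6-13, Igkv5-39 and Igkv10-94 were the highest kappa segments in all 3 IFNg groups. Ighv1-18 and Igkv6-13 were also among the 3 highest of their locus in IL-10 non-phagocytic and IL-10 Tconv-phagocytic libraries. Igkv6-13 was above 0 in 25 of the 28 libraries and was also the kappa segment next highest after the members in IL-10 Treg-phagocytic libraries, at 2.75 ± 0.70 TPM (SD, n = 4).

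**Figure D2:**
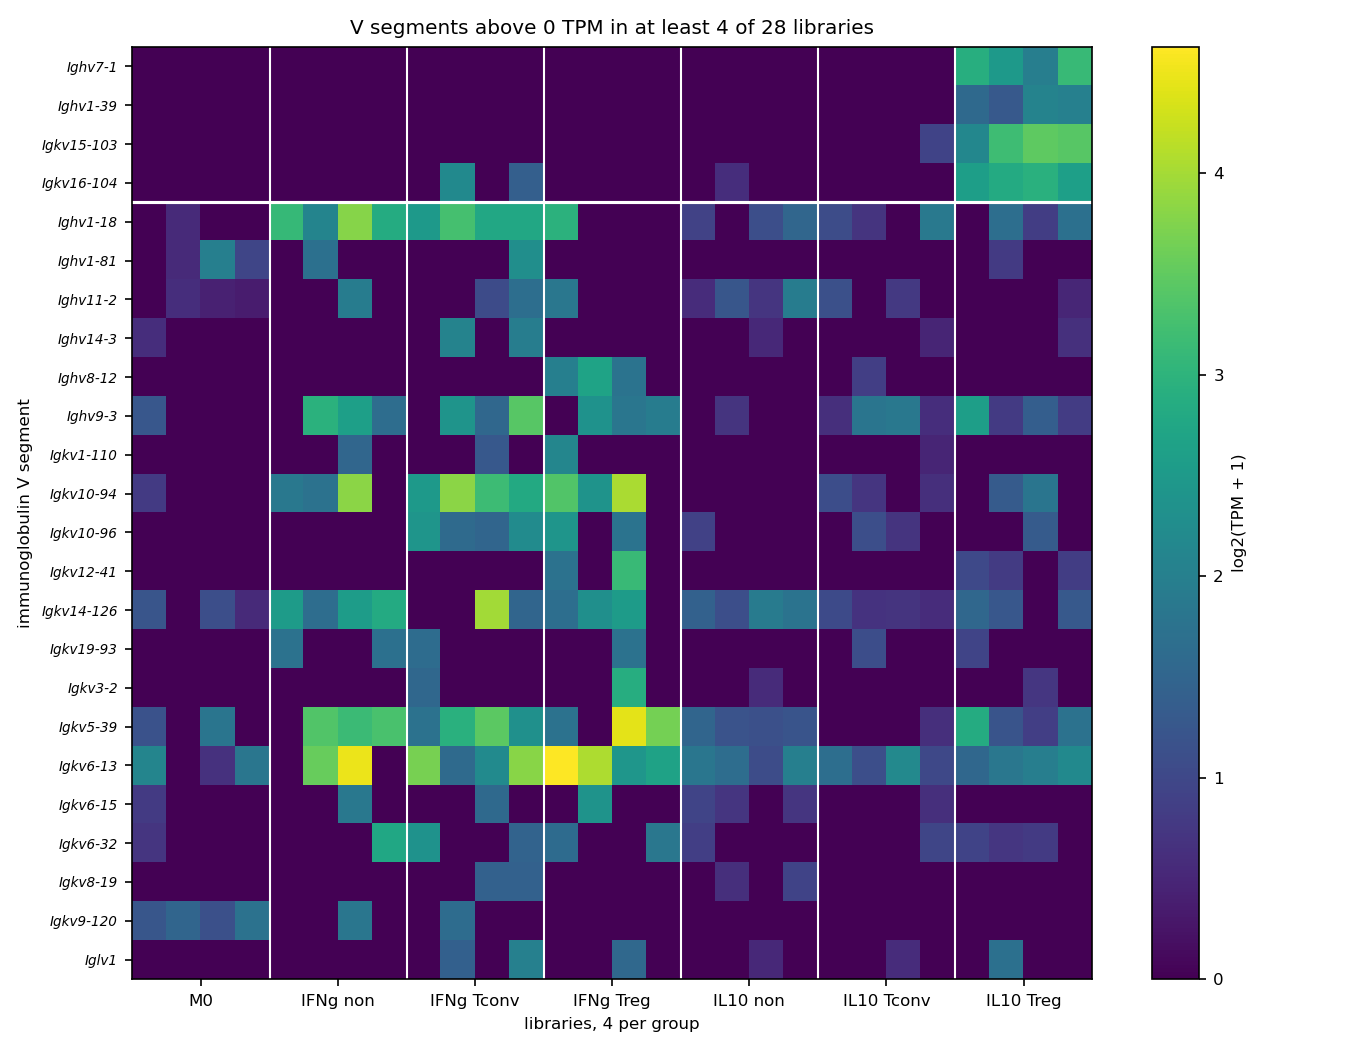
Level as log2(TPM + 1) (colour) of the 24 V segments above 0 in at least 4 of the 28 libraries (rows) in each library (columns, 4 per group in the order of the labels). The 4 members, above the white line, fill the IL-10 Treg-phagocytic columns and are nearly empty elsewhere, while segments such as Igkv6-13 recur in every group.

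The constant regions were not restricted to a group. Ighm, the mu heavy chain, was at 24.93, 22.62, 25.25 and 23.83 TPM in IL-10 Treg-phagocytic libraries. It was at 9.78, 12.86, 12.13 and 12.53 TPM in IL-10 Tconv-phagocytic libraries (BV421 replicates 1 and 2, then Ax647 replicates 1 and 2) and at 8.53, 9.40, 9.29 and 8.82 TPM in IL-10 non-phagocytic libraries. The 3 IL-10 groups did not overlap, and the Treg-phagocytic mean was 2.04 times the Tconv-phagocytic mean and 2.68 times the non-phagocytic mean. Igkc, the kappa constant region, was at 33.05, 32.18, 28.63 and 24.65 TPM in IL-10 Treg-phagocytic libraries. The other 8 IL-10 libraries lay between 7.40 and 14.20 TPM, and the Tconv-phagocytic and non-phagocytic ranges overlapped.

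Cd79a, at a far lower level, was at 1.05, 1.34, 1.00 and 1.14 TPM in IL-10 Treg-phagocytic libraries and at 0.40 to 0.80 TPM in the other 8 IL-10 libraries. Ms4a1 was at 0.14, 0.17, 0.36 and 0.33 TPM in IL-10 Treg-phagocytic libraries and at 0.03 to 0.12 TPM in the other 8. By the depth estimate, 1 read on a transcript of 340 to 390 bases was worth 0.486 to 0.910 TPM in IL-10 libraries. The longest Ms4a1 transcript has 3075 bases, so a read on it was worth less, but these Ms4a1 values still rest on very few reads. Over all 28 libraries Ms4a1 reached 1 TPM in 3, all of them treated with IFNg. Cd79b behaved differently: it was at 2.58, 3.10, 2.77 and 2.38 TPM in Treg-phagocytic and at 2.26, 1.92, 3.12 and 2.95 TPM in Tconv-phagocytic libraries, which overlapped, and both lay above the 0.76 to 1.5 TPM of the non-phagocytic libraries. For 8 of the 9 genes, Cd79b being the exception, all 4 IL-10 Treg-phagocytic libraries stood above the other 8 IL-10 libraries. Of all 13631 genes that passed the filter (at least 1 TPM in at least 4 of 28 libraries) 1.87% did so; since that contrast chose the V segments, nothing is read from the difference. Of the 9 genes, 8 passed the filter and Ms4a1 did not; the 4 V segments passed it only through the IL-10 Treg-phagocytic libraries, in which they are high.

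Under IFNg, Ighm was higher in each of the 12 libraries (29.34 to 51.65 TPM) than in any IL-10 or M0 library, and Igkc (31.18 to 80.16 TPM) was so in all but the lowest, which lay within the IL-10 Treg-phagocytic range. In IFNg non-phagocytic libraries Ighm was at 29.85, 31.36, 51.65 and 33.96 TPM, against 12.76, 7.69, 8.53 and 6.88 TPM in M0. Igkc was at 44.87, 36.65, 80.16 and 48.50 TPM, against 14.95, 7.26, 7.32 and 6.60 TPM in M0. Cd79a was at 2.22, 3.04, 3.34 and 3.00 TPM, against 0.45, 0.48, 0.33 and 0.26 TPM, and Cd79b at 1.76, 3.85, 4.23 and 2.93 TPM, against 1.72, 0.87, 1.51 and 1.25 TPM. For these 4 genes no IFNg non-phagocytic library fell within the M0 range, although Cd79b came close.

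Fold changes were estimated with limma on log2(scaled TPM + 1), a scale that understates changes of low genes, with Benjamini-Hochberg adjustment over all genes tested and a threshold of 0.05. In IFNg non-phagocytic against M0 libraries, Ighm rose by 2.23 (SE 0.21, adjusted p = 1.99e-05), Igkc by 2.73 (SE 0.28, adjusted p = 3.60e-05), Cd79a by 1.66 (SE 0.16, adjusted p = 2.89e-05) and Cd79b by 1.03 (SE 0.23, adjusted p = 0.00457) in log2 units. All 4 members tested rose, but of all 13612 genes tested 52.4% were called in this comparison and 28.5% were called higher, so passing is common here. The median log2 change of the 4 was 1.94, beside 0.03 over all genes. Without the scaling of libraries the median of all genes moved to -0.24 in this comparison, and the share of called genes that were higher moved from 54.4 to 31.5%. Ms4a1 was not tested; it was at 0.29 to 1.43 TPM in IFNg non-phagocytic libraries and at 0.02 to 0.11 TPM in M0. The V segments were at 0 in all 8 libraries and have no estimate.

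In IL-10 non-phagocytic libraries the members were nearer to M0. Mean Ighm was 9.01 ± 0.41 TPM in IL-10 non-phagocytic and 8.96 ± 2.62 TPM in M0 libraries, and mean Cd79b was 1.17 ± 0.31 and 1.34 ± 0.37 TPM (SD, n = 4). Mean Igkc was 1.29 times and mean Cd79a 1.46 times the M0 mean. The ranges of all 4 genes overlapped between these groups, which were not tested against each other. Over the 7 groups, mean Ighm was highest in IFNg Tconv-phagocytic (39.9 TPM), IFNg Treg-phagocytic (37.8) and IFNg non-phagocytic libraries (36.7), which overlapped, followed by IL-10 Treg-phagocytic (24.2), IL-10 Tconv-phagocytic (11.8), IL-10 non-phagocytic (9.01) and M0 libraries (8.96 TPM), of which the M0 range overlapped those of both groups next to it.

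Among IFNg-treated macrophages, Cd79a was the only member called between any 2 of the 3 sorted populations. Cd79a was at 4.34, 6.02, 4.29 and 4.71 TPM in Treg-phagocytic libraries and at 1.74, 3.46, 2.14 and 2.77 TPM in Tconv-phagocytic libraries, and the lowest of the former lay above all 8 other IFNg libraries. The log2 difference between the Treg- and Tconv-phagocytic groups was 0.86 (SE 0.21, 95% interval 0.41 to 1.31, limma adjusted p = 0.0144). It stayed between 0.75 and 0.99, past the threshold, when each of the 8 libraries was left out in turn; over all alternatives its adjusted p ranged from 8.04e-05 to 0.0641. Against non-phagocytic libraries the Treg-phagocytic difference was 0.66 (SE 0.21, 95% interval 0.21 to 1.11, limma adjusted p = 0.0637), short of the threshold. Tconv-phagocytic against non-phagocytic libraries differed by -0.20 (95% interval -0.65 to 0.25, limma adjusted p = 0.951). By the depth estimate, 1 read on a transcript of 340 to 390 bases was worth 1.71 to 2.02 TPM in IFNg Tconv-phagocytic libraries. In the shallower IFNg Treg-phagocytic libraries it was worth 2.14 to 3.92 TPM. The Cd79a transcript is longer (1457 bases), so a read on it was worth less, but each Cd79a value still rests on few reads. The Cd79a call carries that counting error.

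Ighm, Igkc and Cd79b did not pass the test in the IFNg comparisons, although their intervals were wide. Ighm was at 42.47, 42.31, 37.19 and 29.34 TPM in Treg-phagocytic and at 42.11, 41.57, 38.58 and 37.22 TPM in Tconv-phagocytic libraries, a log2 difference of 0.03 with a 95% interval of -0.31 to 0.38 (limma adjusted p = 0.925) that turned to -0.09 without scaling. Igkc was at 64.76, 50.56, 40.02 and 36.92 TPM in Treg-phagocytic and at 59.02, 31.18, 60.51 and 64.78 TPM in Tconv-phagocytic libraries, with an interval of -0.59 to 0.55. Cd79b was at 2.59, 7.04, 2.17 and 4.38 TPM in Treg-phagocytic and at 3.78, 2.05, 3.80 and 7.03 TPM in Tconv-phagocytic libraries, with an interval of -0.73 to 0.84. Of the 4 V segments, Igkv16-104 alone was above 0 in an IFNg library. It had passed the filter only through the IL-10 Treg-phagocytic libraries that chose it, so its fitted value is not used. Of the 4 other members fitted, 1 was called between Treg- and Tconv-phagocytic libraries, where 14.7% of 13594 genes were called. Between Treg-phagocytic and non-phagocytic libraries 0 of the 4 were called by limma (1, Cd79a, at an unadjusted p under 0.05), where 10.5% of genes were. Between Tconv-phagocytic and non-phagocytic libraries 0 of the 4 members (0 at an unadjusted p under 0.05) and 0% of 13594 genes were called by limma, with 766 genes at an unadjusted p under 0.05.

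**Figure D3:**
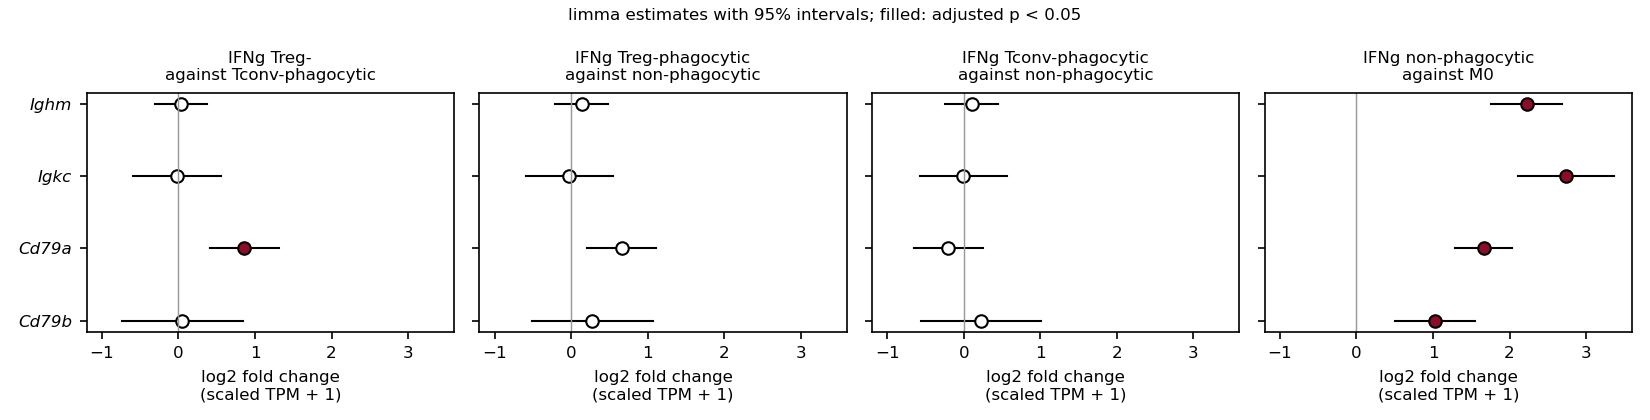
Log2 fold changes of scaled TPM + 1 (horizontal axes) with 95% intervals from limma for the 4 members tested in each of 4 comparisons; filled points passed an adjusted p of 0.05. Beside the 4 genes higher in IFNg non-phagocytic than in M0 libraries, only Cd79a in Treg- against Tconv-phagocytic libraries (0.86) is filled.

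Under IFNg, where Ighm was not called between the sorted populations, Cd79a per Ighm largely repeats the Cd79a values and adds no support of its own. Cd79a per Ighm was 0.102 to 0.161 in IFNg Treg-phagocytic libraries and 0.041 to 0.097 in the other 8 IFNg libraries, which did not overlap. In IL-10 Treg-phagocytic libraries it was 0.040 to 0.059, within the 0.031 to 0.082 of the other IL-10 libraries, although Cd79a itself lay above those libraries. Igkc per Ighm lay between 0.75 and 1.74 in all 28 libraries. Of all 50-base stretches of Cd79a, 91.7% were found in no other gene's transcript.

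Other genes of the B lineage followed the members only in part. Of 33 further B cell, B progenitor and plasma cell genes listed, 18 passed the filter. In IFNg non-phagocytic against M0 libraries 9 rose and 2 fell (61.1%, against 52.4% of all genes; median log2 change 0.62 over the 18, against 0.03 over all genes). H2-Ob, a subunit of the class II accessory molecule H2-O, rose by 3.20 (SE 0.18), Jchain, the chain that links secreted immunoglobulin, by 1.44 (SE 0.33), the chemokine receptor Cxcr5 by 1.15 (SE 0.20) and Fcmr, an IgM Fc receptor, by 0.99 (SE 0.32), with limma adjusted p from 8.32e-07 to 0.0279. Prdm1 and Sdc1, genes of plasma cells that other cells also transcribe, fell by 0.52 and 0.47 on the log2 scale. Cd72, by far the highest gene of the list, was at 264.96 to 464.98 TPM in all 28 libraries and is also transcribed by macrophages, so the list's summed level does not measure B cells.

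When IL-10 Treg-phagocytic were compared with non-phagocytic macrophages, 3 of the 18 rose, where 13.7% of 13610 genes were called (median log2 change of the list 0.09, of all genes 0.005). They were Jchain (1.03, SE 0.15, limma adjusted p = 6.34e-04), the recombinase gene Rag2 (0.88, SE 0.26, limma adjusted p = 0.0382) and Fcrl1 (0.44, SE 0.08, limma adjusted p = 0.00277). Jchain was at 0.75 to 1.77 TPM in IL-10 Treg-phagocytic, 0.24 to 0.79 in IL-10 Tconv-phagocytic and 0 to 0.20 TPM in IL-10 non-phagocytic libraries. Rag2 was at 2.58 to 4.99 TPM in IL-10 Treg-phagocytic and 0.90 to 3.76 TPM in IL-10 non-phagocytic libraries, which overlapped. The Fcrl1 ranges, 9.82 to 12.46 and 7.68 to 9.30 TPM in the same order, did not overlap. Between the Treg- and Tconv-phagocytic groups of this cytokine, where 2.15% of genes were called, 0 of the 18 passed in limma (3 at an unadjusted p under 0.05). Between IL-10 Tconv-phagocytic and non-phagocytic libraries, with 6.41% of genes called, 0 of the 18 passed in limma (2 at an unadjusted p under 0.05). Under IFNg, Cd72 was higher in Treg- than Tconv-phagocytic libraries by 0.30 (SE 0.05, limma adjusted p = 0.00225), and H2-Ob fell by 0.86 (SE 0.22, limma adjusted p = 0.0279) from non-phagocytic to Treg-phagocytic libraries. Each was the sole call among the 18 (5.56%) in its comparison. Of all genes 14.7% and 10.5% were called there, so the list was called less often than genes in general. The H2-Ob call was lost without the non-phagocytic replicates 1, 2 or 4 or the Treg-phagocytic BV421-1. The progenitor genes differed among themselves. Rag2 was at 3.69 ± 1.16 TPM in IL-10 Treg-phagocytic, 3.63 ± 3.94 in IFNg Treg-phagocytic and 0.18 ± 0.25 TPM in M0 libraries (SD, n = 4), while its partner Rag1 was at 0 in 6 of 7 groups. Of the surrogate light chain, Vpreb1 was seen in 6 of 7 groups, and Vpreb2 and Igll1 were at 0 in all 28 libraries.

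Of 389 immunoglobulin genes outside the set, 15 to 17 were tested in a comparison. In IFNg non-phagocytic against M0 libraries 4 of 15 were called, all higher (26.7%, against 52.4% of all genes called and 28.5% called higher). The list was thus called no more often than genes in general, but its median log2 change was 1.01, beside 0.03 over all genes. Ighv segments outside the set summed to 9.63 to 23.16 TPM in IFNg non-phagocytic and 1.23 to 3.95 TPM in M0 libraries. The Igkv sums were 9.78 to 66.54 and 1.86 to 11.53 TPM, which overlapped. The 4 genes called were Ighv1-18, higher by 2.97 (SE 0.33, limma adjusted p = 6.41e-05), Igkv14-126 by 1.87 (SE 0.33), the alpha constant region Igha by 1.68 (SE 0.17) and the lambda constant region Iglc2 by 1.27 (SE 0.44, limma adjusted p = 0.0354). By the depth estimate, 1 read on a short V segment was worth 1.93 to 2.39 TPM in IFNg non-phagocytic and 0.426 to 0.630 TPM in M0 libraries. Igkv14-126 was at 2.16 to 6.10 TPM against 0 to 1.33 TPM, so it rests on few reads in each library. The estimates of V segments in this paragraph carry that counting error. Ighv1-18 was above 0 in all 8 IFNg non-phagocytic and Tconv-phagocytic libraries but in only 1 of 4 IFNg Treg-phagocytic libraries, where it fell by 2.13 against Tconv-phagocytic (SE 0.62, limma adjusted p = 0.0361) and by 2.31 against non-phagocytic libraries (SE 0.62, limma adjusted p = 0.0322) on the log2 scale. The first call was lost without any 1 of 7 of the 8 libraries (all but the Treg-phagocytic Ax647-1) and the second without any 1 of 6 of 8 (all but the non-phagocytic replicate 2 and the same Treg-phagocytic library). Under IL-10, Igkv5-39 was higher in Treg- than Tconv-phagocytic libraries (1.45, SE 0.33, limma adjusted p = 0.0403), a call lost without any 1 of the 4 Tconv-phagocytic libraries or the Treg-phagocytic BV421-2. Igha was higher than in non-phagocytic libraries in both Treg-phagocytic (0.98, SE 0.18, limma adjusted p = 0.00303) and Tconv-phagocytic libraries (0.68, SE 0.18, limma adjusted p = 0.0427), and Iglc1 in Treg-phagocytic libraries (0.95, SE 0.28, limma adjusted p = 0.0399). The 2 comparisons with non-phagocytic libraries share those libraries.

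Genes that carry the signal of the B cell receptor are also used by macrophages. Of 20 tested, 4 were called between IFNg Treg- and Tconv-phagocytic libraries, all lower in Treg-phagocytic; 14.7% of all genes were called there, 1153 of 2004 of them lower, so the list's share is near the background. The Src-family kinase Lyn was at 48.67 to 59.27 TPM against 119.66 to 174.96 TPM and fell by 1.27 on the log2 scale (SE 0.11, limma adjusted p = 2.04e-05). The lipid phosphatase gene Inpp5d fell by 0.56 (SE 0.13), the kinase Syk by 0.50 (SE 0.06) and the inhibitory Fc receptor Fcgr2b by 0.31 (SE 0.06), with limma adjusted p of at most 0.0108. In the same libraries Cd79a was higher, as given above. Under IL-10, where 2.15% of all genes were called, the corresponding 3 of 20 calls were Rasgrp3 (0.88, SE 0.19) and the adaptor Blnk (0.18, SE 0.04), both higher in Treg-phagocytic libraries, and Fcgr2b, lower by 0.16 (SE 0.02); their limma adjusted p were at most 0.0288.

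RNA of T cells also differed between the groups. The summed level of the 20 listed T cell genes was 223 to 345 TPM in M0, 675 to 1212 TPM in the IFNg libraries, and 201 to 217, 237 to 287 and 335 to 369 TPM in IL-10 non-phagocytic, Tconv-phagocytic and Treg-phagocytic libraries. Il7r alone made up a mean of 159 TPM in M0 and 96.0 TPM in IFNg non-phagocytic libraries, and was the gene of the list that fell there (log2 change -0.40, limma adjusted p = 3.05e-04). In M0, where the mean sum was 268 TPM, most of the sum was thus a gene that went against the other 19. Of the 20 T cell genes, 19 rose and 1 fell in IFNg non-phagocytic against M0 libraries (median log2 change 2.87, with 52.4% of all genes called). With IL-10, 20 of 20 rose from non-phagocytic to Treg-phagocytic macrophages, where 13.7% of all genes were called. From Tconv- to Treg-phagocytic macrophages 5 of 20 rose, where 2.15% of all genes were called. The M0 library with the highest sum, replicate 1 with 345 TPM against 223 to 272 in the other 3, also had the most Trac (13.99 TPM, against 4.03 to 5.61 TPM), Ighm and Igkc. The ratio of Ighm to the T cell receptor gene Trac was 0.47 to 0.77 in the 12 IFNg libraries. It was 1.01 to 1.61 in IL-10 non-phagocytic, 0.78 to 1.02 in IL-10 Tconv-phagocytic and 0.82 to 1.87 in IL-10 Treg-phagocytic libraries, and these last ranges overlapped. Haemoglobin and other erythroid genes moved the same way, with 6 genes summing to 5.14 to 12.2 TPM in IL-10 Treg-phagocytic, 2.43 to 4.90 in the other IL-10 and 8.65 to 30.9 TPM in IFNg libraries. Genes of stromal cells summed to 28.1 to 32.0 TPM in IL-10 Treg-phagocytic libraries and to 82.5 to 162 TPM in the other IL-10 libraries. The part of other cells' RNA in the levels of the 9 genes was not tested.

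**Figure D4:**
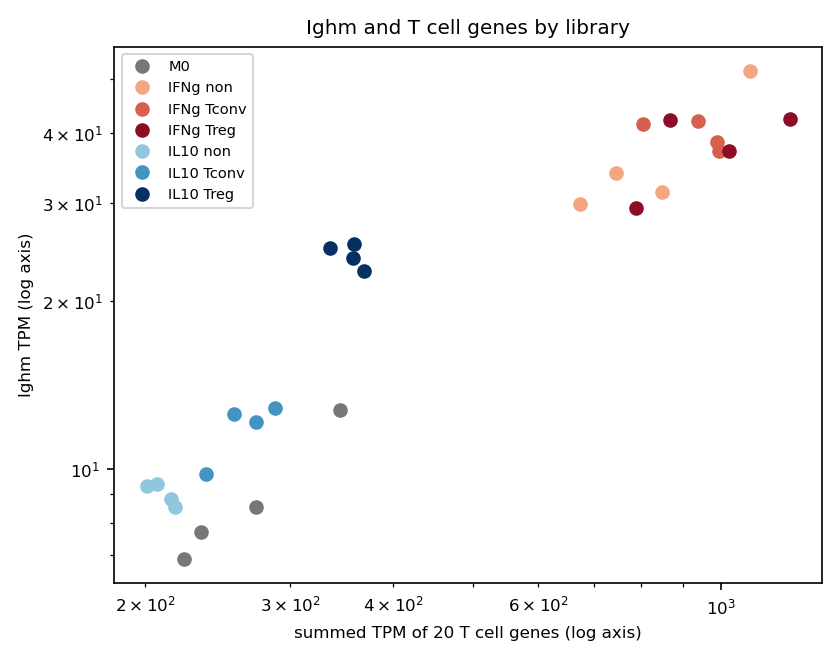
Ighm TPM (vertical log axis) against the summed TPM of 20 T cell genes (horizontal log axis) in the 28 libraries (points, coloured by group). The 12 IFNg libraries lie at the upper right, the IL-10 Treg-phagocytic libraries (Ighm 22.6 to 25.2 TPM) in between, and the remaining IL-10 and M0 libraries lower, with 1 M0 library at 345 TPM of T cell genes level with the IL-10 Treg-phagocytic ones on the horizontal axis. In M0 much of this sum is Il7r. Trac alone was at 13.99 TPM in that M0 library and at 13.33 to 27.44 TPM in IL-10 Treg-phagocytic libraries.

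Likeness of profile was described over all 28 libraries by Pearson's r of log2(scaled TPM + 1). For the mean standardized profile of Ighm, Igkc, Cd79a, Cd79b and Ms4a1 the nearest genes were Pdcd1 (r = 0.98), Sub1 (0.98), Trp53i11 (0.97), Cd3g (0.97) and Gimap3 (0.97). Pdcd1 encodes the inhibitory receptor PD-1 and Cd3g a subunit of the T cell receptor complex. For the profile of the 4 V segments the nearest were Plek (r = 0.67), Tmem26, Atp6v0d1, Wwp1 and Ddhd1 (0.60 each), none of which was restricted to 1 group; Plek was at a mean of 87.6 TPM in IL-10 Treg-phagocytic and 80.3 TPM in IL-10 Tconv-phagocytic libraries. The libraries of a group share their treatment, so these coefficients take in the differences between groups.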

How the data were processed

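Each of 28 libraries has a table of TPM, a length-corrected relative abundance, for 55487 Ensembl gene identifiers, deposited by the authors with 2 decimals and made with STAR and RSEM on mm10, per the submitters' processing notes; versions are not given in the sources used here. The library kit keeps strand, per the labels' protocols. Symbols matched 55141 identifiers, and positions and sequences came from GENCODE vM21 (GRCm38). No pair of libraries was identical.

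The members and gene lists were chosen with earlier results of these data known. The text names all 9 members, at most 4 called genes per list and comparison by absolute log2 change, the highest list genes and V segments by level, and the 5 genes nearest in profile. Libraries were scaled by a trimmed mean of log2 ratios (30% of ratios and 5% of levels trimmed at each end), a pseudocount of 1 TPM was added, and the 13631 genes reaching 1 TPM in 4 or more libraries were fitted with limma 3.58.1 (R 4.3.3; lmFit, eBayes with trend), separately for the 12 libraries of each cytokine and for the 8 IFNg non-phagocytic and M0 libraries, with genes at 0 in all libraries of a fit dropped. The procedure was tested on simulated data. Alternatives covered the libraries fitted, variance weights, scaling, pseudocounts of 0.1 and 5, filters, blocks and each library left out. Libraries of different groups that shared a number, or a dye and number, did not deviate together (correlations of deviations from group means -0.07 to 0.06), so the main fits have no block. Sharing of a dye alone was not checked in this way. Since no counts are held, depth is known only by the estimate given above.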

Additional observations from a re-analysis of the deposited data

Results flagged for a closer look

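Of 42 sets of 4 libraries with differing values (9 genes in 7 groups), 3 held a library far from the other 3 by Dixon's ratio. Chance marks about 1 in 20 sets of continuous values, a rate that does not hold for sets with many values of 0. In M0, Igkc was at 14.95 TPM in replicate 1 and at 6.60 to 7.32 TPM in the others. Igkv15-103 was at 0.91 TPM in the Ax647 replicate 2 of the IL-10 Tconv-phagocytic group and Igkv16-104 at 0.52 TPM in the IL-10 non-phagocytic replicate 2, with the other 3 libraries of each group at 0. By the depth estimate each of these values is 1 or 2 reads. With the other 3 libraries at 0 the ratio is 1 for any value, so these flags were fixed in advance. The cause was not tested in any of the 3.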

How the results depend on the processing

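Of 384 recomputed counts and levels of the members, the other B-lineage and the other immunoglobulin genes, 285 stayed within 1.5 times the value given (levels within 1 SD) and 99 did not, nearly all of them counts of 0 to 6 genes. Of 344 recomputed log2 fold changes of members, 318 kept their direction and their side of the threshold. The cause of the changes was not tested.

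For members, the IFNg Treg- against Tconv-phagocytic count of 1 became 2 in one model of all 28 libraries (the added gene, Igkv16-104, passed the filter only through the libraries that chose it, and nothing is read from it) and 0 with a filter of 5 TPM, which Cd79a does not pass. The Treg-phagocytic against non-phagocytic count of 0 became 1 (Cd79a) in the 28-library model and with a pseudocount of 5, and the non-phagocytic against M0 count of 4 became 2 with the 5 TPM filter, under which fewer members are tested.

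For other B-lineage genes, the 28-library model gave 6, 4 and 1 calls in the IFNg Treg- against Tconv-phagocytic, Treg-phagocytic against non-phagocytic and Tconv-phagocytic against non-phagocytic comparisons (1, 1 and 0 given), and 1 in the IL-10 Treg-phagocytic against non-phagocytic comparison (3 given), as did the 5 TPM filter. The first became 2 with a pseudocount of 0.1 or 5 or no filter, and the second 0 with variance weights or no filter. Under IL-10 variance weights gave 2 in the Treg- against Tconv-phagocytic comparison (0 given), and the Tconv-phagocytic against non-phagocytic count of 0 became 1 with the 2 groups alone, variance weights or the 5 TPM filter and 2 with a pseudocount of 0.1. For other immunoglobulin genes, the IFNg Treg- against Tconv-phagocytic and Treg-phagocytic against non-phagocytic counts of 1 became 0 with the 2 groups alone, variance weights or a pseudocount of 5, the latter also 0 without a filter and 2 in the 28-library model, which gave 1 for Tconv-phagocytic against non-phagocytic (0 given). The IL-10 Treg- against Tconv-phagocytic count of 1 became 0 in the 28-library model, with the 2 groups alone, variance weights, a pseudocount of 5 or no filter. The IL-10 Treg-phagocytic against non-phagocytic count of 2 became 1 in the 28-library model, with a pseudocount of 5 or the 5 TPM filter, and 4 with variance weights, no scaling or a pseudocount of 0.1. The IL-10 Tconv-phagocytic against non-phagocytic count of 1 became 0 in the 28-library model, with a pseudocount of 5 or no filter, 2 with variance weights and 3 with the 2 groups alone or a pseudocount of 0.1.

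With 1 library left out, counts of other B-lineage genes ranged from 1 to 2 (IFNg Treg- against Tconv-phagocytic; 2 without the Tconv-phagocytic BV421-1), 0 to 1 (IFNg Treg-phagocytic against non-phagocytic), 0 to 1 (IL-10 Treg- against Tconv-phagocytic; 1 without the Treg-phagocytic Ax647-2) and 0 to 1 (IL-10 Tconv-phagocytic against non-phagocytic; 1 without the non-phagocytic replicate 4). Those of other immunoglobulin genes ranged from 0 to 1, except 1 to 2 for IL-10 Treg-phagocytic against non-phagocytic. For members without a call the log2 difference changed sign: in IFNg Treg- against Tconv-phagocytic libraries it ranged from -0.028 to 0.14 for Ighm, -0.26 to 0.084 for Igkc and -0.22 to 0.29 for Cd79b, from -0.17 to 0.19 for Igkc in Treg-phagocytic and -0.15 to 0.23 in Tconv-phagocytic against non-phagocytic libraries, and from -0.017 to 0.45 for Cd79b in the last pair. Without scaling, Ighm (-0.087) and Cd79b (-0.048) between Treg- and Tconv-phagocytic and Igkc (0.043) between Tconv-phagocytic and non-phagocytic libraries also changed sign.

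A replicate block was fitted although the shared numbers did not pair the libraries. With the dye and number of the title or of the library name as the block, 0 members were called between IFNg Treg- and Tconv-phagocytic libraries (Cd79a limma adjusted p = 0.0641 and 0.0535, log2 difference 0.86 in both), and 0 other immunoglobulin genes with either cytokine. The block by library name gave 2 other B-lineage genes with IFNg. With the number alone as the block, Cd79a was still called (limma adjusted p = 0.0147), the log2 difference of Igkc was 0.28 and 0.30 in IFNg Treg- and Tconv-phagocytic against non-phagocytic libraries, other B-lineage genes called in the former were 0, and other immunoglobulin genes called were 0 in both IFNg Treg-phagocytic comparisons, 0 between IL-10 Treg- and Tconv-phagocytic libraries, and 1 and 0 in IL-10 Treg- and Tconv-phagocytic against non-phagocytic libraries.

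Over all alternatives, the B cell receptor signalling count ranged from 3 to 9 in IFNg and 0 to 3 in IL-10 Treg- against Tconv-phagocytic libraries, and the T cell count from 15 to 20 in IL-10 Treg-phagocytic against non-phagocytic and 1 to 6 in Treg- against Tconv-phagocytic libraries. In IFNg non-phagocytic against M0 libraries other B-lineage calls ranged from 5 to 13, other immunoglobulin calls from 2 to 8 and T cell calls from 19 to 20. Over all genes, the 28-library model called 4438 (2004 given), 3873 (1430) and 117 (0) in the IFNg Treg- against Tconv-phagocytic, Treg-phagocytic against non-phagocytic and Tconv-phagocytic against non-phagocytic comparisons, and 107 (292), 651 (1870) and 257 (873) in those of IL-10; the IFNg Tconv-phagocytic against non-phagocytic count was 1 with those 2 groups alone.

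Mean Ighm in IL-10 Treg-phagocytic libraries (24.2 TPM) was 22.6 after division by the scaling factor and 22.9 by the median-of-ratios factor. Mean Ighv segments seen in M0 fell from 2.5 to 1.5 with a minimum of 0.5 TPM. Depth limits the V segments most in IFNg libraries.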
